A study of Mus musculus with 6 samples.

Results

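The genes described here were the 6 GATA transcription factors, *Gata1* to *Gata6*, and the FOG cofactors that bind them, *Zfpm1* (FOG1) and *Zfpm2* (FOG2). They were chosen by name, as the probe sets whose array annotation gave exactly 1 symbol and that symbol was a member. This gave 39 probe sets for 8 genes, of 77669 probe sets with 1 symbol and 16523 genes on the array. The data were 6 exon arrays, each with the amplified RNA of 50 ETV2::GFP+FLK1+CD41- cells taken from embryos of ICR mothers and ETV2::GFP fathers, 3 arrays at E8.5 and 3 at E7.5. GFP in this transgenic line marks cells that have expressed *Etv2*, an ETS factor needed for blood and endothelium, FLK1 (*Kdr*) is a VEGF receptor of early mesoderm and endothelium, and CD41 (*Itga2b*) marks early blood cells, which the sort removed in both groups. The methods place the E8.5 cells in the embryo proper while the labels give the stage alone, so stage and site cannot be told apart. The methods call the replicates biological, but whether they came from separate litters was not stated, so p-values reflect only how far these arrays lie apart, which may be technical.

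GATA factors bind DNA that carries a GATA core through zinc fingers, and FOG proteins do not bind these sites themselves but dock on one of the fingers and bring corepressors with them. GATA1, GATA2 and GATA3 are best known in blood, where GATA2 maintains progenitors and acts in hemogenic endothelium, GATA1 with FOG1 drives red cells and megakaryocytes, and GATA3 directs T cells and also acts in trophoblast. GATA4, GATA5 and GATA6 are best known in heart and endoderm, and FOG2 works with GATA4 in the heart.

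The 250 bases before a transcription start are shown for *Gata1* and *Gata2*, the members whose level was lower on all E8.5 arrays than on any E7.5 array. The sequences are from RefSeq (GRCm38.p6), on the strand of the gene, and capitals mark a GATA core (GATA, or TATC for the other strand). The *Gata1* window is chrX:7967911-7968160 on the minus strand, inside the annotated span of the gene. The *Gata2* windows are chr6:88193641-88193890, which ends just before the annotated gene, and chr6:88198414-88198663, which lies inside it, both on the plus strand.
Gata1 promoter: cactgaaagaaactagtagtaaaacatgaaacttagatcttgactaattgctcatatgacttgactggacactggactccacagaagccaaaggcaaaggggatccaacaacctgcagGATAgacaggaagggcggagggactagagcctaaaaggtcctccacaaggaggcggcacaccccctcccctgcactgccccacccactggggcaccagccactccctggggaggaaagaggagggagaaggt
Gata2 promoter just before the gene: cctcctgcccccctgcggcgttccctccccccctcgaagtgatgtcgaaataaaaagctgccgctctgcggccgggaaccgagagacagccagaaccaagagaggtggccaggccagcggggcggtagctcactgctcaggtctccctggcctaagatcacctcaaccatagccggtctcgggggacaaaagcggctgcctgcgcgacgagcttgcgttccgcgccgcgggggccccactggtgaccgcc
Gata2 promoter inside the gene: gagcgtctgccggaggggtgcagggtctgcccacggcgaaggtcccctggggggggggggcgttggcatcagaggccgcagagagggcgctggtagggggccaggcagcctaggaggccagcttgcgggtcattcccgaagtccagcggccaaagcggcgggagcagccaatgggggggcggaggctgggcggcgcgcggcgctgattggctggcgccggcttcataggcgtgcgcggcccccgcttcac
Windows of 6 promoters were used, for 5 members (*Gata1*, *Gata2*, *Gata3*, *Gata5* and *Zfpm1*). None was used for *Gata4* or *Zfpm2*. *Gata6* was left out because of its chromosome, a rule that was not applied to the windows of all genes. The 6-letter forms AGATAA or AGATAG and TGATAA or TGATAG, searched on both strands, were in 0 of these 6 windows, against 26.5% of 32851 windows of the same length. The 4-letter core was in 1 of the 6, the *Gata1* window, where it began at position -132 from the start, against 53.6% of all windows. The 6-letter forms contain the core, so these are not separate searches. The GC content was 54.0% in the *Gata1* window and 67.2% to 74.0% in the other 5.

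Array medians lay between 6.98 and 7.07 on the log2 scale. The table holds no detection calls, so whether a low value is above background is unknown. The level of a gene on an array was the median over its probe sets, which can come from different probe sets on different arrays, so that a gene-level difference can hold a difference in brightness between probe sets. Stages were compared with limma over all genes, the study's own test for these arrays, as E8.5 minus E7.5, with Benjamini-Hochberg adjustment and a threshold of 0.05. At that threshold 18 of 16523 genes passed (0.109% called), and 0 of the 8 members did. The lowest adjusted p of a member was 0.36, for *Gata1*. At an unadjusted p under 0.05, 2 members were lower at E8.5 (*Gata1* and *Gata2*), where 4.68% of all genes were, and 2 were higher (*Gata3* and *Gata5*), where 3.11% were. The methods' t-test, named there for the study's data in general, also gave 4 members at that level. The same 2 members lay wholly below the E7.5 arrays (background 7.12%) and the same 2 wholly above (background 7.1%). The median difference of the 8 members was -0.70 and that of all genes 0.003. The exact permutation test of 3 arrays against 3 cannot give a p below 0.1, the value it gave for these 4 genes.

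**Figure D1:**
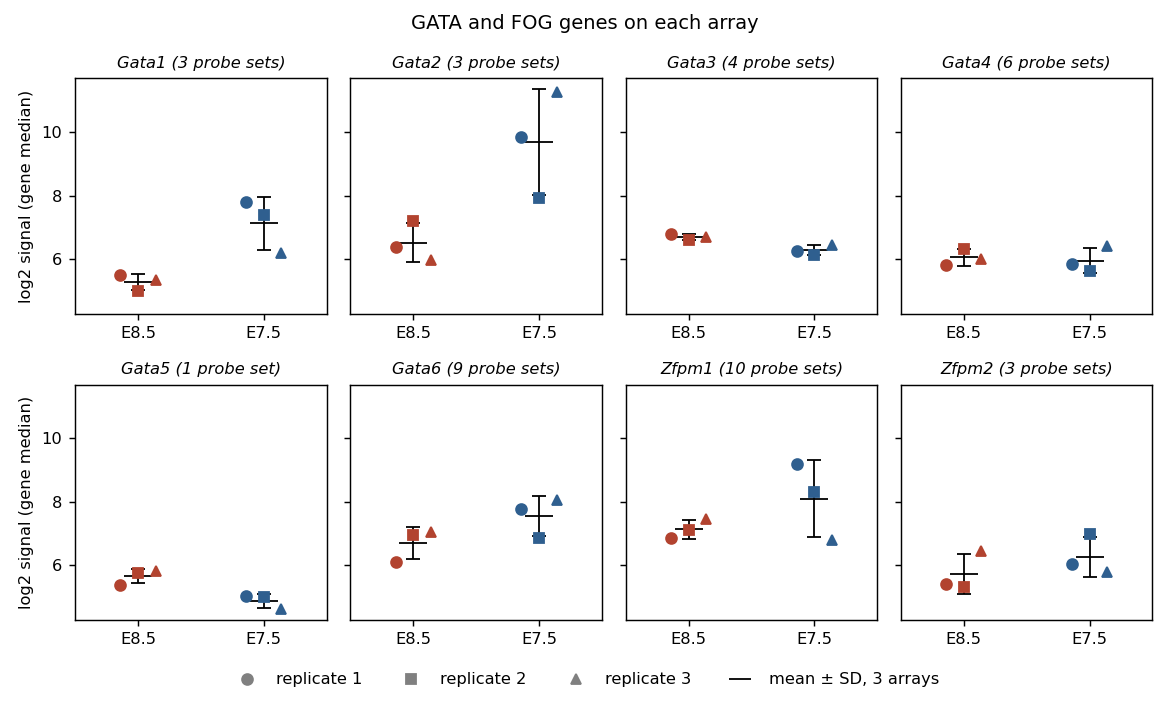
Level of each GATA and FOG gene (log2 signal, median over its probe sets) on the 3 E8.5 arrays (left, red) and the 3 E7.5 arrays (right, blue), with the mean and SD of 3 arrays; marker shapes are replicate numbers and do not pair arrays. The 3 E8.5 arrays lie below all E7.5 arrays for Gata1 and Gata2 and above them for Gata3 and Gata5, and the stages overlap for the other 4 genes.

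*Gata2* showed the largest difference in size among the 8 genes by the median over probe sets, though not by the brightest probe set, with which *Gata1* differed by -1.02, *Gata5* by 0.77 and *Gata2* by -0.76. Its level was 6.37, 7.19 and 5.97 log2 signal in E8.5 cells, against 9.86, 7.93 and 11.27 in E7.5 cells. The stages did not overlap, but the E7.5 arrays spread over more than 3 log2 units, with replicate 2 close to the highest E8.5 array. The means were 6.51 ± 0.62 at E8.5 and 9.69 ± 1.68 at E7.5 (SD, n = 3 each), a difference of -3.18 ± 0.84 (SE), or 9.05-fold. The median was probe set 4805966 on all E8.5 arrays and on E7.5 replicate 2, but probe set 5101294 on E7.5 replicates 1 and 3, so the fold sets levels of different probe sets against each other in part. The 95% interval was -5.23 to -1.12 and the adjusted p was 0.43 from limma.

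The 3 probe sets of *Gata2* did not differ by the same amount. Probe set 4805966 had 6.37, 7.19 and 5.97 in E8.5 cells, against 12.26, 7.93 and 11.72 in E7.5 cells, a difference of -4.12 ± 1.18 with an adjusted p of 0.55 over all probe sets, the lowest of any member's probe set. Probe set 5101294 had 10.002, 9.22 and 9.93 in E8.5 cells, against 9.86, 10.31 and 11.27 in E7.5 cells, a difference of -0.76. Here the stages overlapped, since E8.5 replicates 1 and 3 lay above E7.5 replicate 1. Probe set 4805527 had 5.69, 6.65 and 5.78 in E8.5 cells, against 6.32, 7.15 and 7.88 in E7.5 cells, a difference of -1.08 with overlapping stages. All 3 differences were negative, but the gene-level value matched none of them. With the mean over the 3 probe sets it was -1.99 (adjusted p = 0.28), and with probe set 5101294 alone, the one with the highest mean signal, -0.76 (adjusted p = 0.76).

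*Gata1* had 5.47, 4.98 and 5.32 in E8.5 cells, against 7.80, 7.38 and 6.18 in E7.5 cells. All E8.5 arrays were low and close together, and E7.5 replicate 3 was the nearest to them. The means were 5.26 ± 0.25 and 7.12 ± 0.84, a difference of -1.86 ± 0.44 (3.63-fold), with a 95% interval of -2.92 to -0.80 and an adjusted p of 0.36. Leaving out E7.5 replicate 3 gave -2.33 with an adjusted p of 0.14. The gene-level difference was larger in size than that of each of its 3 probe sets. These differed by -1.43 (4459470), -1.02 (5330138) and -0.94 (5221418). The median came from probe set 5221418 on all E8.5 arrays, but from a different probe set on each E7.5 array. Probe set 5221418 had 7.80, 5.28 and 5.51 at E7.5 and was high in replicate 1 only, while probe set 4459470 had 5.02, 7.65 and 6.18 and was highest in replicate 2. Probe set 5330138 had 6.95, 6.85 and 6.64 in E8.5 cells, against 9.15, 7.38 and 6.98 in E7.5 cells, and was the only one of the 3 without overlap. A median difference outside the range of the gene's probe-set differences, on either side, occurred in 216 of 2184 genes with 3 probe sets (9.89%). With the mean over probe sets, *Gata1* differed by -1.13 (adjusted p = 0.33).

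**Figure D2:**
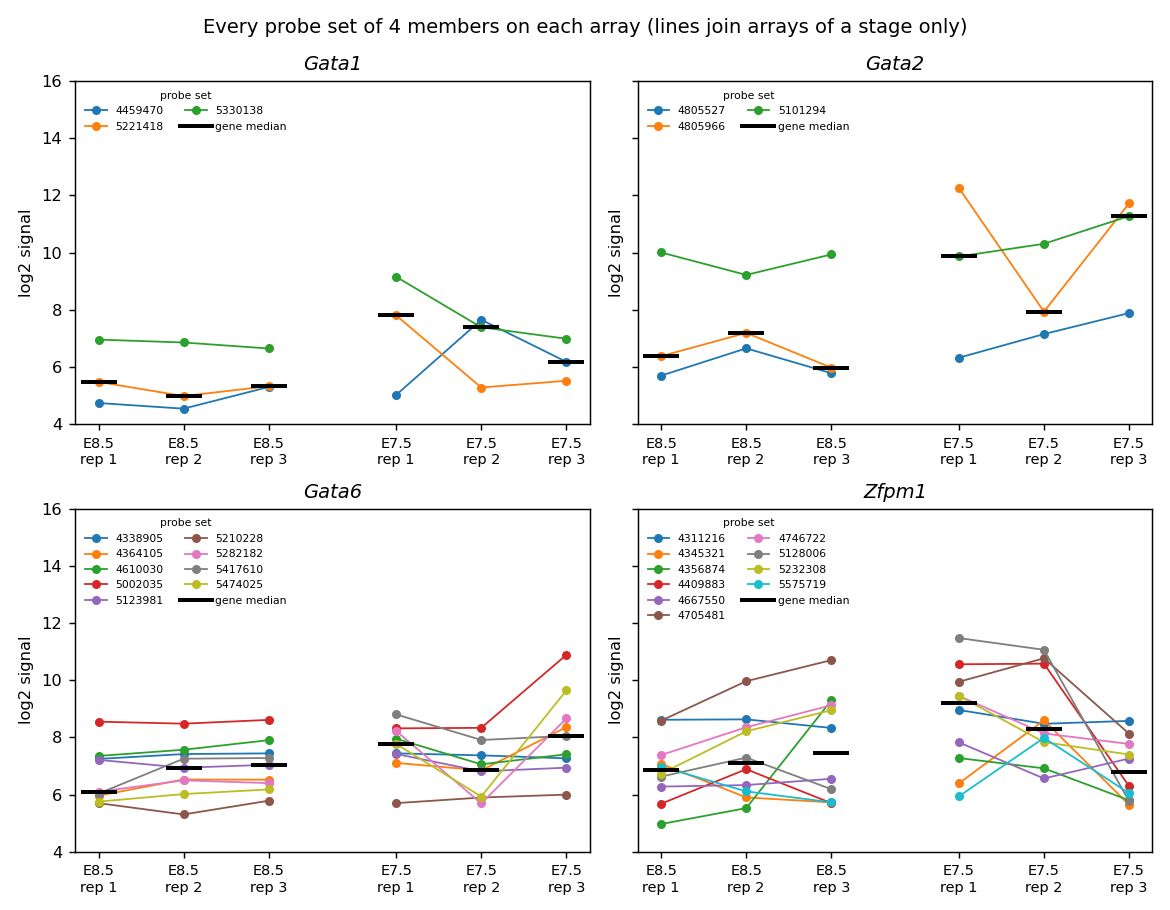
Log2 signal of every probe set of Gata1, Gata2, Gata6 and Zfpm1 on each array, E8.5 arrays on the left and E7.5 arrays on the right of each panel; coloured lines are probe sets and black bars the gene median. Single probe sets were high on single E7.5 arrays, such as 12.26 for Gata2 probe set 4805966 in replicate 1 and 10.89 for Gata6 probe set 5002035 in replicate 3.

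*Gata3* was slightly higher at E8.5, with 6.79, 6.59 and 6.70 in E8.5 cells, against 6.24, 6.12 and 6.44 in E7.5 cells. Both stages were tight and did not overlap. The difference was 0.43 ± 0.17, with a 95% interval of 0.008 to 0.85 that lay under 2-fold and an adjusted p of 0.63. Its 4 probe sets differed by 0.71 (5060251), 0.55 (5078155), 0.12 (5286165) and -0.03 (4607255), and only probe set 5060251 was without overlap. With probe set 4607255 alone, the one with the highest mean signal, the direction turned.

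*Gata4*, a factor of the heart and of endoderm, had 5.81, 6.32 and 5.99 in E8.5 cells, against 5.82, 5.61 and 6.39 in E7.5 cells. The arrays of the stages were mixed. The difference was 0.10 ± 0.27, with a 95% interval of -0.55 to 0.75, an adjusted p of 0.95 and an exact permutation p of 0.8. *Gata3* and *Gata4* were the 2 members whose interval lay within 2-fold in both directions, as it did for 55.1% of all genes. The 6 probe sets of *Gata4* differed by -0.37 (4596004), -0.23 (5254786), 0.03 (5556177), 0.19 (4391050), 0.25 (5550698) and 0.48 (5447686). The last had 7.11 in E8.5 replicate 2 and 6.25 in E7.5 replicate 3, and 4.48 to 5.68 on the other 4 arrays.

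*Gata5* had 5.38, 5.74 and 5.80 in E8.5 cells, against 5.00, 4.99 and 4.60 in E7.5 cells. All E8.5 arrays were above all E7.5 arrays. The difference was 0.77 ± 0.21 (1.71-fold), with a 95% interval of 0.26 to 1.29 and an adjusted p of 0.43. This value came from 1 probe set, 4439327, as for 3408 of the 16523 genes.

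*Gata6*, which acts in primitive endoderm and heart, had 6.10, 6.94 and 7.04 in E8.5 cells, against 7.77, 6.85 and 8.05 in E7.5 cells. E7.5 replicate 2 lay among the E8.5 arrays. The median came from probe sets 5282182 and 5123981 on the E8.5 arrays, but from 5474025, 4364105 and 5417610 on the E7.5 arrays. The gene-level difference thus sets levels of different probe sets against each other. The difference was -0.86 ± 0.41, with a 95% interval of -1.85 to 0.13, an adjusted p of 0.70 and an exact permutation p of 0.3. Of its 9 probe sets, 4 were over 2-fold lower at E8.5, by -1.80 (5474025), -1.40 (5417610), -1.19 (5282182) and -1.10 (4364105). Among these, probe sets 5417610 and 4364105 were without overlap. Probe set 5417610 had 6.03, 7.25 and 7.28 in E8.5 cells, against 8.80, 7.91 and 8.05 in E7.5 cells. Probe set 5474025 had 5.75, 6.02 and 6.18 in E8.5 cells, against 7.77, 5.93 and 9.64 in E7.5 cells, so that its difference came from E7.5 replicates 1 and 3. The other 5 differed by -0.63 (5002035), -0.27 (5210228), 0.008 (4338905), 0.008 (5123981) and 0.13 (4610030). Of these, 5002035 was at 8.32 and 8.33 in E7.5 replicates 1 and 2 and at 10.89 in replicate 3.

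*Zfpm1* encodes FOG1, the partner of GATA1 in red cells and megakaryocytes. It had 6.85, 7.09 and 7.44 in E8.5 cells, against 9.21, 8.31 and 6.78 in E7.5 cells. E7.5 replicate 3 was the lowest of the 6 arrays, while replicates 1 and 2 were the highest. The difference was -0.97 ± 0.61, with a 95% interval of -2.44 to 0.50, an adjusted p of 0.75 and an exact permutation p of 0.4. Dropping E7.5 replicate 3 gave -1.63, and dropping E7.5 replicate 1 gave -0.41. The *Zfpm1* median came from probe sets 4311216 and 4746722 on E7.5 replicates 1 and 2, and from other pairs on the other arrays. The contrast of E7.5 replicates 1 and 2 was largest on a different pair of its 10 probe sets. Probe set 4409883 had 5.68, 6.89 and 5.70 in E8.5 cells, against 10.56, 10.58 and 6.30 in E7.5 cells, a difference of -3.06. Probe set 5128006 had 6.63, 7.29 and 6.19 in E8.5 cells, against 11.47, 11.06 and 5.77 in E7.5 cells, a difference of -2.73. On both, E7.5 replicate 3 was at the level of the E8.5 arrays. The difference of the other 8 was -0.83 (4667550, without overlap), -0.64 (4345321), -0.39 (5575719), -0.26 (5232308), -0.17 (4746722), -0.15 (4311216), -0.07 (4356874) and 0.14 (4705481). Other pairs of *Zfpm1* probe sets moved together in other ways. After each probe set's mean was subtracted, 4746722 and 5232308 differed by a root mean square of 0.21 over the 6 arrays, and 4345321 and 5575719, both highest in E7.5 replicate 2, by 0.35. Where these probe sets lie in the gene was not used here.

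*Zfpm2* encodes FOG2. It had 5.38, 5.30 and 6.45 in E8.5 cells, against 6.01, 6.97 and 5.77 in E7.5 cells, and the stages overlapped. The difference was -0.54 ± 0.45, with a 95% interval of -1.63 to 0.54 and an adjusted p of 0.80. Leaving out 1 array moved it between -0.91 (E8.5 replicate 3) and -0.18 (E7.5 replicate 2). Its 3 probe sets differed by -0.54 (5569250), -0.21 (5148729) and 0.11 (4491774). Probe set 4491774 was at 3.44 to 4.09 on all arrays.

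Over the 39 probe sets, 26 averaged lower at E8.5, as did 51.3% of all probe sets. Of the 39, 5 lay wholly below the E7.5 arrays (background 7.33%) and 2 wholly above (background 6.59%). A difference over 2-fold was seen in 10 probe sets, all lower at E8.5, from *Gata1* (2), *Gata2* (2), *Gata6* (4) and *Zfpm1* (2). Of all probe sets, 8.80% were over 2-fold lower and 5.06% over 2-fold higher. None of the 39 passed the test over all probe sets in limma, where 64 did (0.0824% called). An unadjusted p under 0.05 in limma was seen in 4 of the 39, against 5427 of all 77669 probe sets. Probe sets of 1 gene share the RNA of an array and are not replicates. The spread between replicates was larger at E7.5 in 24 of the 39 probe sets, against 47.5% of all probe sets, and in 7 of the 8 gene-level values (in *Gata5* by a margin in the third digit), against 48.0% of all genes.

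**Figure D3:**
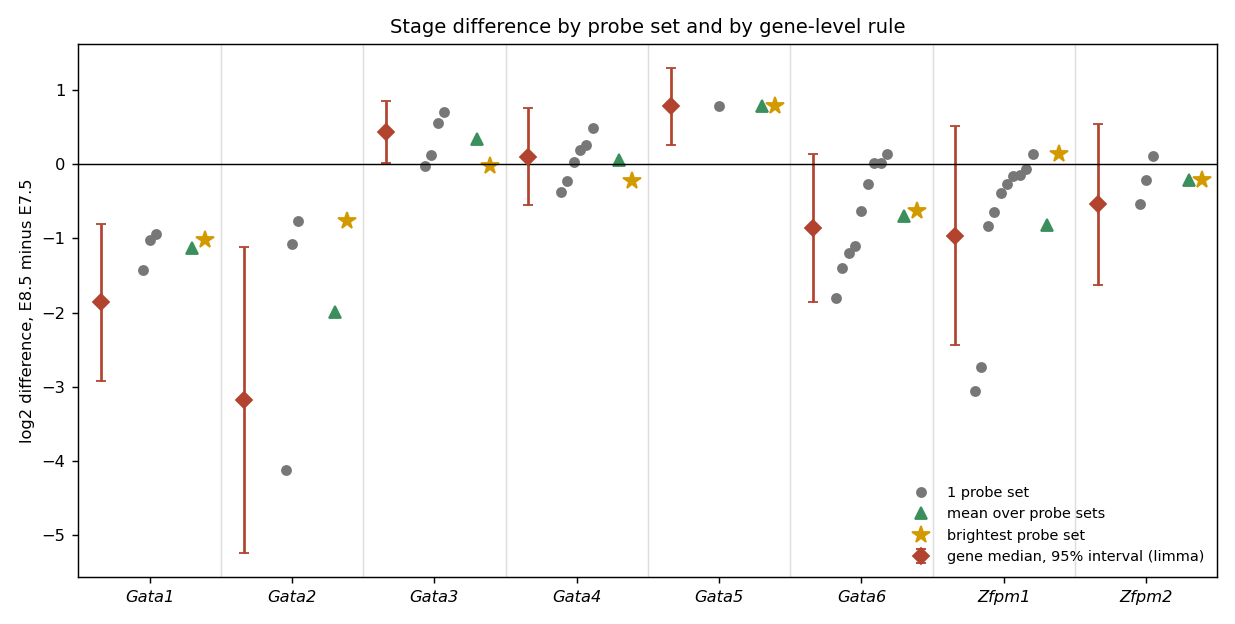
Log2 difference of E8.5 minus E7.5 for each member, with the gene median and its 95% interval from limma (diamond), every probe set (grey points), the mean over probe sets (triangle) and the probe set of highest mean signal (star). The Gata1 median (-1.86) lies below all 3 of its probe sets, and the Gata2 probe sets run between -4.12 and -0.76.

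Genes with the most similar profile were sought among those with at least 3 probe sets, by the root mean square difference over the 6 arrays after each gene's mean was subtracted. For *Gata2*, whose own profile had a root mean square of 1.89, they were *Runx1* (0.57), *Atp6v1b2* (0.58) and *Oxct1* (0.60). *Runx1*, a factor needed for blood cells to emerge from endothelium, had 4.74, 4.45 and 4.01 in E8.5 cells, against 8.34, 5.12 and 8.39 in E7.5 cells, with E7.5 replicate 2 again nearest to the E8.5 arrays. For *Gata1* (1.06) they were *Golgb1* (0.23), *Pja1* (0.24) and *Mmachc* (0.25), in each of which E7.5 replicate 3 was the lowest of the E7.5 arrays. For *Gata3* (0.24) they were *Plec1* (0.039), *Mbnl1* (0.054) and *A230067G21Rik* (0.061), and for *Gata5* (0.43) *Sh2b2* (0.090), *Unc5cl* (0.099) and *EG621983* (0.10). The arrays of a stage share it, so any genes that differ between stages are alike in part by this measure. The *Gata2* and *Gata1* profiles were medians that came from different probe sets on different arrays. Among the E7.5 arrays, *Gata2* probe set 4805966 was lowest in replicate 2, but 5101294 and 4805527 were lowest in replicate 1. Of the *Gata1* probe sets, only 5330138 was lowest in replicate 3.

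The proteins that form a complex with GATA factors and SCL (*Tal1*) on DNA were listed as 16 genes, all measured, of which 0 passed the adjusted threshold in limma and 3 had an unadjusted p under 0.05 (2 higher, 1 lower). Their median difference was 0.14, with 9 positive and 7 negative. For this and the later lists, the share of all genes past the adjusted threshold in limma was 0.109%. At an unadjusted p under 0.05 in limma, 3.11% of all genes were higher and 4.68% lower. Of all genes, 8338 were positive and 8185 negative. *Tcf12*, an E protein that pairs with SCL, averaged 7.69 ± 0.67 in E8.5 cells, against 5.12 ± 1.29 in E7.5 cells, without overlap, a difference of 2.57 (adjusted p = 0.43). *Ldb2*, a LIM-domain-binding adaptor, differed by 2.18 (adjusted p = 0.16), also without overlap, while *Runx1* differed by -2.89 (adjusted p = 0.50) and the ETS factor *Erg* by 0.65 with overlap. Of the 15 corepressors that FOG proteins bring in, the NuRD complex and CtBP, 14 were measured and 0 passed in limma (1 lower at an unadjusted p under 0.05), with a median of -0.01. *Chd4*, the NuRD remodeller, differed by -0.81 (adjusted p = 0.56), and the histone-binding subunits *Rbbp4* and *Rbbp7* by -1.03 and 0.87, none past the threshold. Among 8 of 9 measured other proteins with a GATA-type zinc finger, 0 passed in limma and 1 was higher at an unadjusted p under 0.05. Their median was -0.10 and their mean 0.15. *Trps1*, a repressor that binds GATA sites, differed by 1.00 on its only probe set (adjusted p = 0.39).

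Of 28 erythroid and megakaryocytic targets of GATA1, 18 were measured, 1 passed and it was lower. This was *Hbb-bh1*, the embryonic beta-type globin, with 3.02, 3.56 and 2.73 in E8.5 cells, against 7.45, 7.53 and 8.96 in E7.5 cells, a difference of -4.87 with an adjusted p of 0.046. Leaving out any 1 array brought the count of this list to 0. The list's median was -0.09, with 8 positive and 10 negative. *Tfrc*, the transferrin receptor, differed by -1.10 (adjusted p = 0.59), and *Itga2b*, the CD41 of the sort, by -0.52 (adjusted p = 0.67). In the other direction, *Aqp1*, *Slc4a1* and *Nfe2* differed by 0.27, 0.17 and 0.17, each with overlapping stages. *Hba-x*, the embryonic alpha-type globin, averaged 7.84 ± 0.12 at E8.5 and 7.80 ± 0.14 at E7.5. The median level of the list was 6.59 to 6.63 on the E8.5 arrays and 6.54 to 7.14 on the E7.5 arrays. In sorted cells measured in bulk, fewer cells of a type and less RNA per cell cannot be told apart.

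Of 24 cardiac partners and targets of GATA4, 23 were measured and 1 passed. This was *Bmp4*, a signal for mesoderm, blood and heart, with 3.40, 3.97 and 4.05 in E8.5 cells, against 9.56, 8.21 and 9.83 in E7.5 cells, a difference of -5.39 with an adjusted p of 0.035. Without E7.5 replicate 2 the list still held 1 call, and without any other single array it held 0. The list's median was 0.03 while its mean was -0.34, with 13 positive and 10 negative. Without overlap, 4 genes of the list were higher at E8.5 and 3 lower. *Smarcd3*, a cardiac chromatin subunit, differed by -3.53 (adjusted p = 0.50), and *Myl7*, the atrial myosin light chain, by -2.55 (adjusted p = 0.56). In the other direction, *Myl2* and *Myh7* of the same list differed by 0.45 and 0.27, both without overlap (adjusted p = 0.68 and 0.74 in limma). *Mef2c*, a partner of GATA4 that also acts in endothelium, averaged 8.56 ± 0.68 in E8.5 cells, against 7.15 ± 0.14 in E7.5 cells, without overlap, a difference of 1.42 (adjusted p = 0.38). Of 19 endoderm genes, 16 were measured and 0 passed in limma, adjusted or unadjusted, with a median of 0.003 and 8 in each direction.

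**Figure D4:**
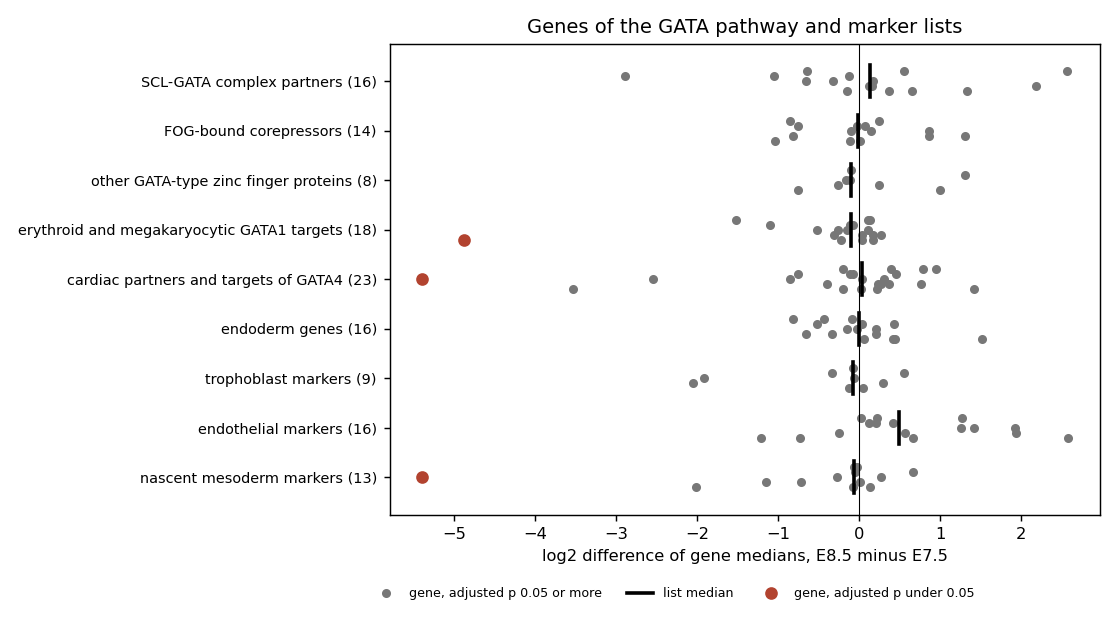
Log2 difference of gene medians, E8.5 minus E7.5, for the measured genes of each list (number in brackets), with genes past the adjusted threshold in red and the list median as a black bar. Hbb-bh1 (-4.87) and Bmp4 (-5.39, which is on both the cardiac and the nascent mesoderm lists) were the genes that passed.

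Markers of other cell types were set beside these values. Of 14 trophoblast markers, 9 were measured and 0 passed in limma (2 lower at an unadjusted p under 0.05), with a median of -0.08. The median level of this list was 7.48 to 8.42 on the E8.5 arrays and 8.44 to 8.80 on the E7.5 arrays. Of the measured genes, 3 were positive and 6 negative. The keratins *Krt18* and *Krt8*, which other epithelia also express, differed by -1.91 (adjusted p = 0.20) and -2.05 (adjusted p = 0.44), both without overlap. *Cdx2*, which marks trophoblast stem cells, differed by 0.05. *Esrrb*, on 1 probe set, differed by 0.55 without overlap (adjusted p = 0.67 in limma), and *Elf5* by 0.29 with overlap. Of 16 nascent mesoderm markers, 13 were measured and *Bmp4* was the 1 that passed. Brachyury (*T*), which marks the primitive streak, differed by -2.01 (adjusted p = 0.55) with overlap. *Lhx1* differed by -1.15 without overlap (adjusted p = 0.50 in limma). *Tbx6* and *Mesp2*, each with 1 probe set, differed by 0.67 and 0.27 without overlap. At an unadjusted p under 0.05 in limma, 0 genes of the list were higher and 3 lower. The median of the mesoderm list was -0.06, with 4 positive and 9 negative. The part of these cell types in the values of the GATA and FOG genes was not tested.

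Of 16 endothelial markers, all measured, 0 passed the adjusted threshold in limma. At an unadjusted p under 0.05 in limma, 5 were higher and 1 lower, where 3.11% and 4.68% of all genes were. Of the 16, 13 were positive and 3 negative, against 8338 and 8185 of all genes, and the median was 0.49. *Icam2* had 9.74, 9.52 and 9.63 in E8.5 cells, against 7.98, 7.73 and 7.38 in E7.5 cells, a difference of 1.93 with an adjusted p of 0.06. *Cldn5*, of tight junctions, and *Emcn*, a sialomucin, differed by 1.92 (adjusted p = 0.14) and 2.58 (adjusted p = 0.42), while *Flt1*, a VEGF receptor, differed by -1.21 (adjusted p = 0.59). Of the genes of the sort, *Etv2* averaged 11.34 ± 0.36 at E8.5 and 11.82 ± 0.23 at E7.5, and *Kdr* 8.37 ± 0.40 at E8.5 and 9.11 ± 0.72 at E7.5.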

How the data were processed

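RNA of sorted cells, 50 for each of 6 arrays, was amplified with SuperAmp and hybridised to Affymetrix Mouse Exon 1.0 ST arrays. The authors deposited log2 RMA values for 90788 probe sets. The submitters' processing notes name RMA and Affymetrix Power Tools, whose versions are not given in the sources used here. This method equalises the distributions of arrays and compresses differences of dim probe sets, and amplification of so little RNA can lose transcripts at random.

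Probe sets were named through the platform annotation, in which 77669 had 1 symbol, 654 had several (0 of them with a member) and 12465 none. Of 16523 symbols, 13887 were current RefSeq symbols, among them all 8 members, 2632 were synonyms and 4 had no match. The level of a gene was the median over its probe sets. Stages were compared with limma 3.58.1 in R 4.3.3 (lmFit, then eBayes; two-sided, without a filter). Each difference is that of E8.5 from E7.5, and the Benjamini-Hochberg adjustment ran across all genes or all probe sets. The code was tested on simulated data. At an unadjusted p under 0.05, 1288 genes passed in limma and 1216 by the methods' t-test, of which 0 passed after adjustment.

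The members and gene lists were chosen with earlier results of these data known. Named genes were all members, from each list the 3 or fewer of smallest p in each direction, the sort genes and the 3 most similar profiles per member without overlap, and *Hba-x* and *Cdx2* as markers. Alternatives covered scaling, the value per gene, a filter on dim genes, the variance model, a replicate block, the methods' t-test and leaving out each array.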

Additional observations from a re-analysis of the deposited data

How the results depend on the processing

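No GATA or FOG gene and no probe set of one passed the adjusted threshold under any setting tried. Of 115 alternatives for the 8 genes, 110 kept the direction and 5 reversed it. *Gata4*, between -0.065 and 0.32 with 1 array left out, reversed to -0.04 without E8.5 replicate 2, to -0.065 without E7.5 replicate 2 and to -0.23 with the brightest probe set, which also reversed *Gata3* (-0.027) and *Zfpm1* (0.14). Leaving out 1 array gave *Gata2* between -4.06 and -2.39 and *Gata1* between -2.33 and -1.52. The filter on dim genes left 3 members (*Gata2*, *Gata6* and *Zfpm1*) among 8261 genes.

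Of all genes, 6 were higher and 12 lower at E8.5 past the threshold. The counts were 0 and 0 with the filter, the replicate block or the methods' t-test, 3 and 6 with robust eBayes, and 2 and 7 with the brightest probe set. The mean over probe sets gave 2 higher. Leaving out 1 array gave 0 to 8 higher and 0 to 4 lower. Of all probe sets, 25 were higher and 39 lower, against 2 and 4 with the filter, 0 and 0 with the replicate block or the methods' t-test, and 0 to 5 and 0 to 11 with 1 array left out. The call among GATA1 targets (1) went to 0 with the filter, robust eBayes, the replicate block, the methods' t-test and the brightest probe set, and the calls among cardiac and mesoderm genes (1 each) went to 0 with the filter, the replicate block and the methods' t-test; with 1 array left out these 3 lists held 0 to 1. The cause of these changes was not tested. The filter tests fewer genes, and leaving out an array uses fewer samples. *Hbb-bh1*, the call among GATA1 targets, was itself removed by the filter and so was not tested under it. Its mean signal over the arrays lay below that of *Gata3*, which the filter also removed. Whether the filter kept *Bmp4*, the call among cardiac and mesoderm genes, was not checked. The 0 of those lists under the filter may thus be a removal and not a failed test.

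Outside the replicate block, the replicate numbers were not used to pair the arrays. Same-numbered arrays had correlations of deviations between -0.0083 and 0.0074, and arrays of different number between -0.030 and 0.033. Whether same-numbered arrays shared a litter or a processing day is not known, and 3 arrays per stage cannot decide it. With as many arrays of each number at both stages the replicate block cannot change a mean difference; it moved adjusted p-values, that of *Gata2* being 0.59 with it, against 0.43 without it. Signal over background is unknown, since the table holds no detection calls.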
